A study of Mus musculus with 10 samples.

Results

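The genes described here encode 10 proteins that connective tissue cells secrete or carry: Aspn, Lum, Dcn, Bgn, Eln, Mgp, Sparc, Postn, Igfbp7 and Pi16. All 10 were present, by symbol, among the 30984 Ensembl gene identifiers of the deposited table. They were chosen from the same counts, with their differences between the treatment groups in view, so those differences are given below as descriptions and support nothing by themselves. The data are messenger RNA counts from mouse blood, in 6 libraries labelled burn wound healing, called burn here, and 4 labelled burn wound healing-NC, called NC here, at 30677206 to 36379663 counts a library. The labels do not expand NC. They give no strain, sex, age, time or animal of origin for either group, and they do not say which libraries, if any, come from mice given MnCl2, the compound in the series title. Both group labels contain the words burn wound healing, and no label says whether either group was unburned. Since nothing says that the libraries of a group come from separate animals, the spread between libraries may be technical.

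The labels name whole blood as the source, with lymphocyte and monocytes entered under other headings. Markers of blood cells were abundant: summed over the list, T cell genes stood at 914 to 1883 CPM (TMM-scaled counts per 1e6 reads), B cell genes at 1578 to 2481, monocyte genes at 3649 to 5438 and platelet genes at 2978 to 14921. Red cell genes were present at 75242 to 141906 CPM. The 10 matrix genes together had 986 to 3391 counts in a library, and Pi16 gave 42.3% to 89.2% of their summed CPM. In bulk RNA of this kind, fewer cells of a type and less RNA per cell cannot be told apart.

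Connective tissue matrix is laid down mainly by fibroblasts and smooth muscle cells. Small leucine-rich proteoglycans sit on collagen fibrils and limit how fibrils grow, elastin gives tissue its recoil, and matricellular proteins bind both matrix and cells without being structural. In circulating leukocytes most of these genes are known to be low or silent, while Sparc protein is also known from platelet granules.

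Start-site sequences are shown because most members moved together across libraries, and a shared promoter architecture was looked for. RefSeq promoters on GRCm38.p6, the assembly called mm10, were matched by symbol for 6 of the 10 members, with 2 entries for Postn, and the 250 bases before each start were searched on both strands. The motifs were the TATA box TATAAA, the GC box GGGCGG, an AP-1 site TGACTCA and a TEAD site CATTCC, held by 12.4%, 32.7%, 4.46% and 12.6% of all 32851 promoters in the table. Lum, Dcn, Eln and Mgp had no entry. The last 100 bases before the start are printed for 4 members, 5′ to 3′ on the gene's strand, with TATA and GC boxes on either strand in capitals.
Aspn (chr13:49544343-49544442, plus strand): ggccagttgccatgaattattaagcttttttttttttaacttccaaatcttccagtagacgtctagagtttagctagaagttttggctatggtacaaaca
Postn (chr3:54361007-54361106, plus strand): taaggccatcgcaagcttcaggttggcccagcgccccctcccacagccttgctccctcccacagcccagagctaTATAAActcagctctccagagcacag
Bgn (chrX:73483501-73483600, plus strand): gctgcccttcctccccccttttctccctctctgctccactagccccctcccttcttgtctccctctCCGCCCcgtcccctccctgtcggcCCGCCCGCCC
Igfbp7 (chr5:77408046-77408145, minus strand): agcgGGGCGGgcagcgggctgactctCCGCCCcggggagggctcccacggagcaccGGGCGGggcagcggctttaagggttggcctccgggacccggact
The printed starts lie 0 (Aspn), 1 (Bgn), 2 (Postn) and 4 (Igfbp7) bases from the gene's start in GENCODE. Postn held a TATA box at -26 to -21 from this start. Aspn held TATAAA farther up, at -207 to -202 and, on the opposite strand, at -178 to -173. Bgn held 3 GC boxes, of which the pair nearest the start overlap, and Igfbp7 held 4, of which the farthest, at -110 to -105, is outside the printed bases. The other Postn entry and the entries of Sparc and Pi16 start 1842, 3103 and 1202 bases from the gene's start in GENCODE, so their windows are not at that start, and they held none of the 4 motifs. No entry of a member held the AP-1 or TEAD letters in its window.

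Setting burn against NC asks which blood transcripts differ between the treatment groups. With edgeR's quasi-likelihood test on the counts of 17268 genes, 0 genes, or 0%, had an adjusted p under 0.05, so 0 of the 10 members did, and the smallest adjusted p was 0.393. DESeq2 on the same counts called 85 genes, or 0.493% of those it tested, 5 of them members: Aspn, Lum, Eln, Sparc and Igfbp7. At an unadjusted p under 0.05, 7.00% of all genes were lower in burn and 4.25% higher. All 10 members had a negative log2 difference of burn minus NC, against 45.3% of all genes tested, and the median of the 10 was -1.83 where that of all genes was 0.02. Nothing is read from these counts, since the members were picked on this contrast. All 10 passed the filter on low counts, which asked for about 0.294 CPM in as many libraries as the smaller group holds. Aspn, Lum, Eln and Postn reached it in 1 burn library and Mgp in 3, so those 5 genes passed through the NC libraries.

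One burn library stood apart on these genes. Burn 1 was the highest burn library for 8 of the 10, the exceptions being Dcn, highest in burn 5, and Pi16, highest in burn 4. The mean over members of log2 CPM, centred on each gene's mean, was 0.86 in burn 1 and -1.48 to -1.08 in burn 2 to 6, and it was 1.01 to 1.71 in the NC libraries. Results are therefore given with and without burn 1. Leaving out the burn library with the highest level of these genes lowers their burn mean by construction, and the genes were picked on this contrast, so calls made without it are a description and no support. Without it, edgeR called 10 of 17089 genes, or 0.0585%, all lower in burn. The 5 members among them were Postn, Eln, Lum, Sparc and Aspn, and the other 5 genes were Col3a1, Col1a1, Col6a1, Sfrp1 and Nppa. Burn 1 had total counts of 32873198, within the range of the other libraries. Its haemoglobin share of 12.4% lay above the 8.33% to 10.1% of burn 2 to 6 and between those of NC 2 (12.8%) and NC 3 (12.2%). Mitochondrial ribosomal RNA took 6.53%, 3.27% and 3.48% of counts in NC 1 to 3 and 1.30% in NC 4, against 1.39% to 2.60% in the burn libraries, with 1.71% in burn 1. Its part in the group differences was not tested.

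**Figure D1:**
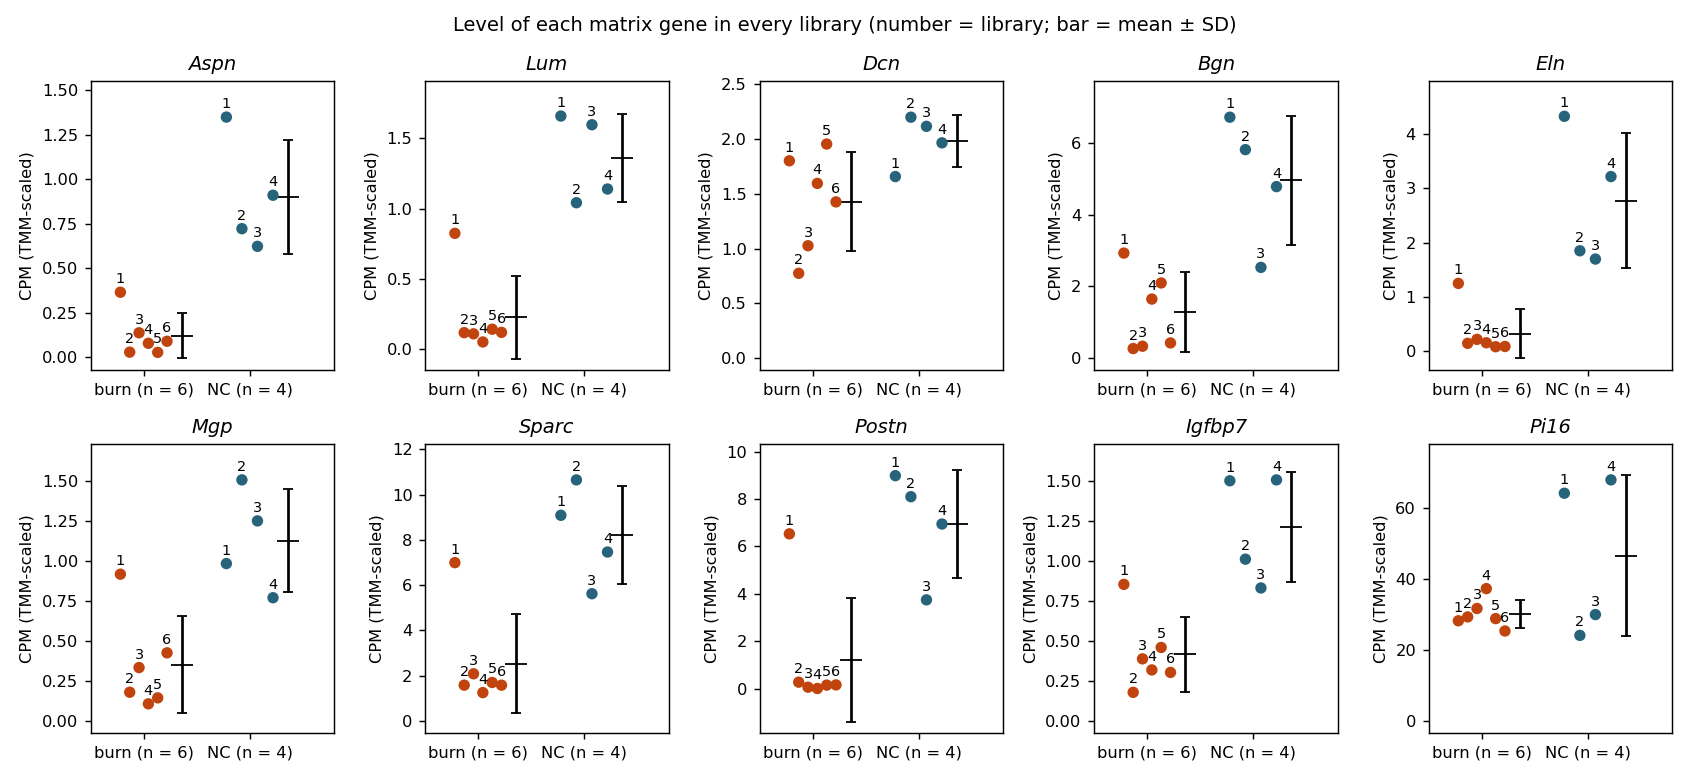
CPM of each of the 10 matrix genes (vertical axes, TMM-scaled) in 6 burn libraries (orange) and 4 NC libraries (blue), with the library number above each point and the mean ± SD as a bar. Burn 1 lies above burn 2 to 6 in 8 of the 10 panels, and its 6.53 CPM of Postn lies inside the NC range of 3.75 to 8.99.

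Of the small leucine-rich proteoglycans, Aspn and Lum were lower in every burn library than in every NC library, Bgn overlapped through burn 1, and Dcn differed least. Groups lay apart in this direction for 0.683% of all genes. Aspn encodes asporin, which binds collagen and TGF-beta (ENSMUSG00000021388; mm10 chromosome 13, 49544443 to 49567565, plus strand). It stood at 0.0287 CPM in the lowest burn library, 0.0854 at the median and 0.366 in burn 1, the highest. NC 1 to 4 stood at 1.35, 0.723, 0.624 and 0.911 CPM. These values rest on 1 to 12 counts per library in burn and 18 to 44 in NC, so the gene was close to the detection limit in most burn libraries. On the log2 scale, burn minus NC was -2.86 (SE 0.56), and -3.55 without burn 1. Aspn overlaps Cenpp, a centromere protein gene on the opposite strand, and shares 7 exonic bases with it. Cenpp had 8 to 27 counts per library in burn and 4 to 16 in NC. The sources used here do not say whether counting used strand, so reads in shared exons cannot be told apart.

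Lum encodes lumican, a keratan sulfate proteoglycan of collagen fibrils (ENSMUSG00000036446; chromosome 10, 97565128 to 97572703, plus strand). Burn libraries ranged from 0.0532 CPM through a median of 0.120 to 0.824 in burn 1, and NC 1 to 4 had 1.66, 1.04, 1.60 and 1.14 CPM. Burn 1 came closest to the NC libraries, at 27 counts against 36 in NC 2, while burn 2 to 6 had 2 to 5 counts each. The log2 difference was -2.57 (SE 0.60), and -3.59 without burn 1.

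Bgn encodes biglycan, a chondroitin or dermatan sulfate proteoglycan (ENSMUSG00000031375; chromosome X, 73483602 to 73495933, plus strand). It stood at 0.268 CPM in the lowest burn library, 1.04 at the median and 2.93 in burn 1, and at 6.72, 5.82, 2.53 and 4.78 CPM in NC 1 to 4. Burn 4 and burn 5, at 1.65 and 2.10 CPM, were well above burn 2, 3 and 6, at 0.268, 0.333 and 0.425. No other member but Dcn set burn 4 and 5 apart from burn 2, 3 and 6 in this way. Burn 1 exceeded NC 3, so the groups overlapped. The fitted log2 difference was -1.95 (SE 0.60), and -2.37 without burn 1.

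Dcn encodes decorin, the most widespread of the family in skin and tendon (ENSMUSG00000019929; chromosome 10, 97479609 to 97518143, plus strand), and it lies upstream of Lum on the same strand. It stood at 0.774 CPM in the lowest burn library, 1.51 at the median and 1.95 in burn 5, and at 1.66, 2.20, 2.12 and 1.96 CPM in NC 1 to 4. Burn 1 and burn 5 lay inside the NC range and the other 4 burn libraries below it. Group means were 1.43 ± 0.45 CPM in burn (SD, n = 6) and 1.98 ± 0.24 in NC (SD, n = 4), and the log2 difference was -0.47 (SE 0.27). Leaving out any 1 library gave -0.58 to -0.38.

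Elastic fibre and mineral-binding members were both lower in burn 2 to 6 than in any NC library. Eln encodes elastin (ENSMUSG00000029675; chromosome 5, 134702593 to 134747323, minus strand). It stood at 0.0862 CPM in the lowest burn library, 0.154 at the median and 1.25 in burn 1, and at 4.33, 1.85, 1.70 and 3.22 CPM in NC 1 to 4. The groups did not overlap. Burn 2 to 6 held 3 to 8 counts each, against 41 in burn 1 and 49 to 141 per library in NC. The log2 difference of -3.09 (SE 0.66) was the most negative of the 10 with all libraries, and it was -4.25 without burn 1, when that of Postn was more negative. An antisense gene shares 267 exonic bases with Eln and had 2 counts in NC 2 and 0 in the other libraries.

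Mgp encodes matrix Gla protein, an inhibitor of soft tissue calcification made by smooth muscle cells and chondrocytes (ENSMUSG00000030218; chromosome 6, 136872435 to 136875823, minus strand). It stood at 0.106 CPM in the lowest burn library, 0.256 at the median and 0.916 in burn 1, and at 0.982, 1.50, 1.25 and 0.769 CPM in NC 1 to 4. Burn 1 lay inside the NC range. The log2 difference was -1.68 (SE 0.52), and -2.24 without burn 1.

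Among the matricellular members Postn varied most between libraries. It encodes periostin, a fasciclin-domain protein of injured and mechanically loaded tissue (ENSMUSG00000027750; chromosome 3, 54361109 to 54391037, plus strand). Burn 2 to 6 had 9, 2, 0, 5 and 5 counts, while burn 1 had 214 and NC 1 to 4 had 293, 280, 108 and 244. The 0 in burn 4 allows a level of up to 0.0825 CPM, from 3 counts over the library total before TMM scaling, which covers counting error only. In CPM, burn 1 stood at 6.53 and NC 1 to 4 at 8.99, 8.10, 3.75 and 6.95. Burn 1 was 52.8 times the mean of burn 2 to 6, the widest such gap of the 10 genes. In log2 terms burn minus NC was -2.56 (SE 1.11) with all libraries and -5.80 without burn 1.

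Sparc encodes osteonectin, a collagen-binding protein (ENSMUSG00000018593; chromosome 11, 55394500 to 55423183, minus strand). It stood at 1.25 CPM in the lowest burn library, 1.64 at the median and 6.99 in burn 1, and at 9.08, 10.6, 5.62 and 7.46 CPM in NC 1 to 4. Burn 2 to 6 were close together, at 1.25 to 2.08 CPM, and burn 1 lay inside the NC range. The log2 difference was -1.70 (SE 0.44), and -2.33 without burn 1. Summed over 14 platelet genes, burn 1 to 6 stood at 4505, 6146, 5709, 2978, 5969 and 5560 CPM. NC 1 to 4 stood at 14921, 7635, 6901 and 3484 CPM, so the groups overlapped through NC 4. The part of platelet RNA in the Sparc values was not tested.

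Igfbp7 encodes an insulin-like growth factor binding protein of vessel walls and stroma (ENSMUSG00000036256; chromosome 5, 77349240 to 77408041, minus strand). It stood at 0.179 CPM in the lowest burn library, 0.354 at the median and 0.855 in burn 1, and at 1.50, 1.01, 0.832 and 1.51 CPM in NC 1 to 4. Burn 1 lay just above NC 3, and the other burn libraries lay below all NC libraries. Fitted on the log2 scale, burn minus NC was -1.54 (SE 0.39), and -1.87 without burn 1. Igfbp7 shares 85 exonic bases with Polr2b, a subunit of RNA polymerase II on the opposite strand with 2756 to 3695 counts in a library, so part of its 6 to 53 counts could belong to that gene if strand was not used.

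Pi16, which encodes peptidase inhibitor 16 and marks a population of adventitial fibroblasts, was far more abundant than the other 9 and followed another pattern (ENSMUSG00000024011; chromosome 17, 29317680 to 29330593, plus strand). It stood at 25.3 CPM in the lowest burn library, 29.0 at the median and 37.2 in burn 4, and at 64.1, 24.1, 29.9 and 67.9 CPM in NC 1 to 4. NC 1 and NC 4 lay above every burn library, while NC 2 and NC 3 were at the level of burn, so the groups overlapped through NC 2 and NC 3. The log2 difference was -0.63 (SE 0.26), with -0.43 when NC 1 was left out and -0.87 when NC 2 was. Pi16 and the neutrophil genes were high in the same NC libraries. Summed over 10 neutrophil genes, NC 1 and NC 4 had 5880 and 4443 CPM, NC 2 and NC 3 had 610 and 939, and burn 4 was the highest burn library at 2414. The part of neutrophil RNA in the Pi16 values was not tested.

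**Figure D2:**
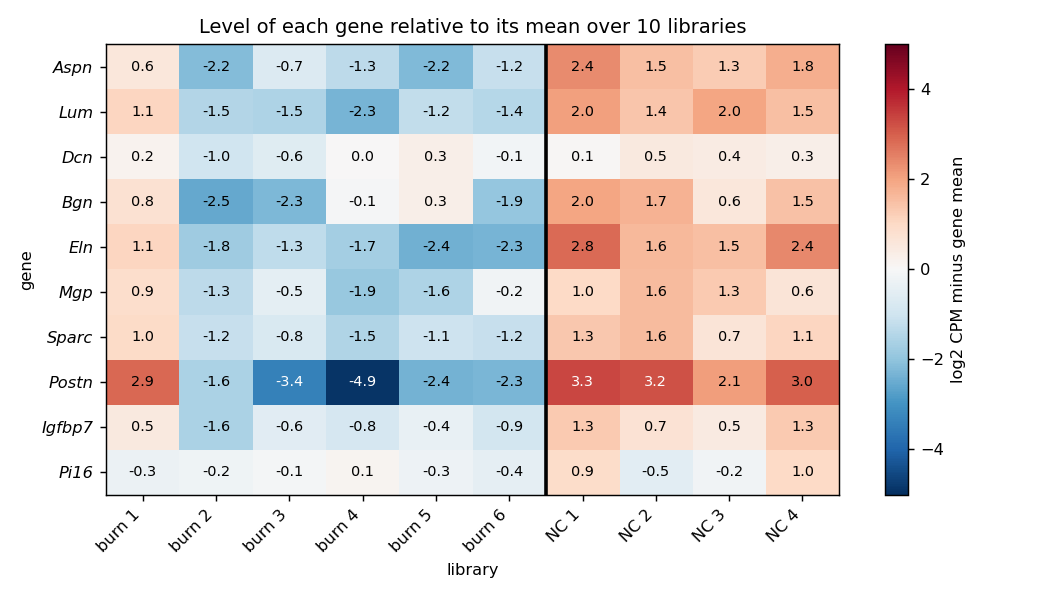
Log2 CPM of each gene (rows) in each library (columns) minus the gene's mean over the 10 libraries, red for higher and blue for lower, with burn to the left of the line and NC to the right. Burn 1 is above the mean for all genes but Pi16, and burn 2 and burn 3 are below it for all 10.

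Per length, the order of the genes was the same in both groups except for the place of Dcn. The deposited FPKM values, which divide by gene length and library total, put Pi16 first at 4.79 ± 0.67 in burn (SD, n = 6) and 7.24 ± 3.75 in NC (SD, n = 4). Sparc followed at 0.672 ± 0.576 and 2.12 ± 0.56, Igfbp7 came next at 0.349 ± 0.191 and 0.991 ± 0.313, and then Mgp at 0.298 ± 0.254 and 0.922 ± 0.237. In NC, Bgn (0.800 ± 0.296), Postn (0.785 ± 0.266) and Lum (0.542 ± 0.118) followed, and then Aspn (0.377 ± 0.140), Eln (0.338 ± 0.157) and Dcn (0.332 ± 0.036), whose spreads overlap. In burn, Dcn ranked 5 at 0.249 ± 0.081 FPKM and Eln last at 0.0404 ± 0.0560. From Igfbp7 down, the mean ± SD of each gene overlapped that of the next gene in the order, in both groups.

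The make-up of the matrix signal also differed between libraries. Summed over the 9 genes other than Pi16, the level was 20.01 to 36.3 CPM in NC, 22.5 in burn 1 and 3.54 to 6.75 in burn 2 to 6. Postn gave 18.7% to 24.8% of that sum in NC and 29.1% in burn 1, against 0% to 7.56% in burn 2 to 6. Dcn went the other way, at 4.57% to 10.6% in NC, 8.02% in burn 1 and 21.8% to 30.9% in burn 2 to 6. Sparc kept a large share throughout, at 25.04% to 32.4% in NC and 24.0% to 44.5% in burn. Bgn gave 31.6% and 31.1% in burn 4 and 5 and at most 18.5% elsewhere. Burn 2 to 6 lay outside the NC ranges for Postn and Dcn, whereas burn 1 had shares close to or inside the NC ranges.

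**Figure D3:**
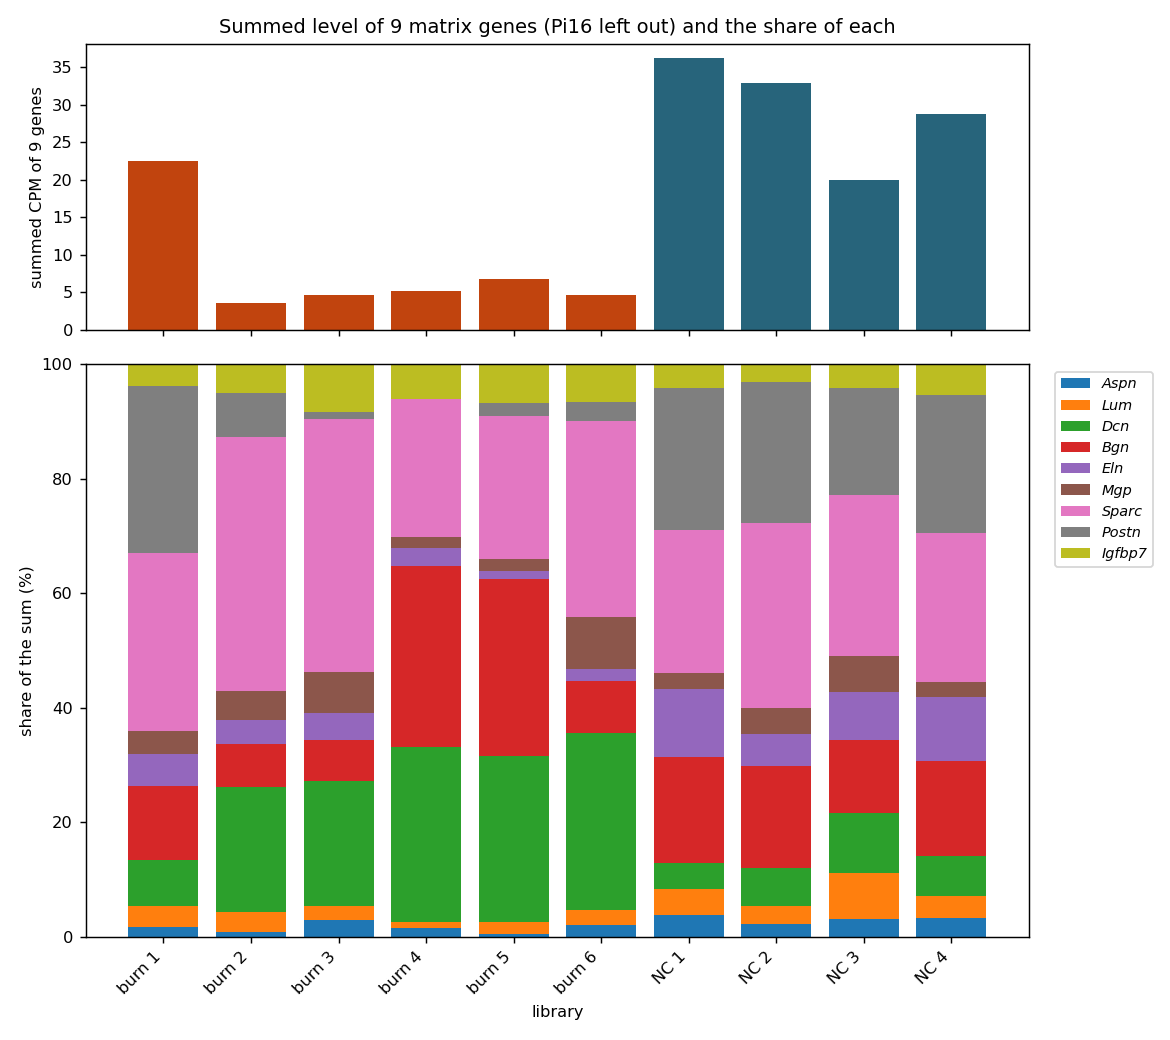
Summed CPM of the 9 matrix genes other than Pi16 (top, bars) and the percent of that sum given by each gene (bottom, stacked bars) in 6 burn and 4 NC libraries. Burn 2 to 6 sum to 3.54 to 6.75 CPM with little Postn and much Dcn, while burn 1, at 22.5 CPM, has a make-up like that of the NC libraries.

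The members varied together to different degrees. The Pearson correlation of a gene's log2 CPM with the mean of the other 9 over the 10 libraries was 0.98 for Sparc, 0.97 for Lum and Eln, 0.63 for Dcn and 0.42 for Pi16. Spearman's rho was 0.87 for Sparc, 0.90 for Lum, 0.81 for Eln, 0.62 for Dcn and only 0.08 for Pi16. Within the 6 burn libraries the Pearson value of Pi16 was -0.31, so Pi16 showed no clear tie to the others. The libraries fall into separate sets on these genes, burn 2 to 6 below and burn 1 with NC above, so these values mostly measure that separation and are given as a description.

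**Figure D4:**
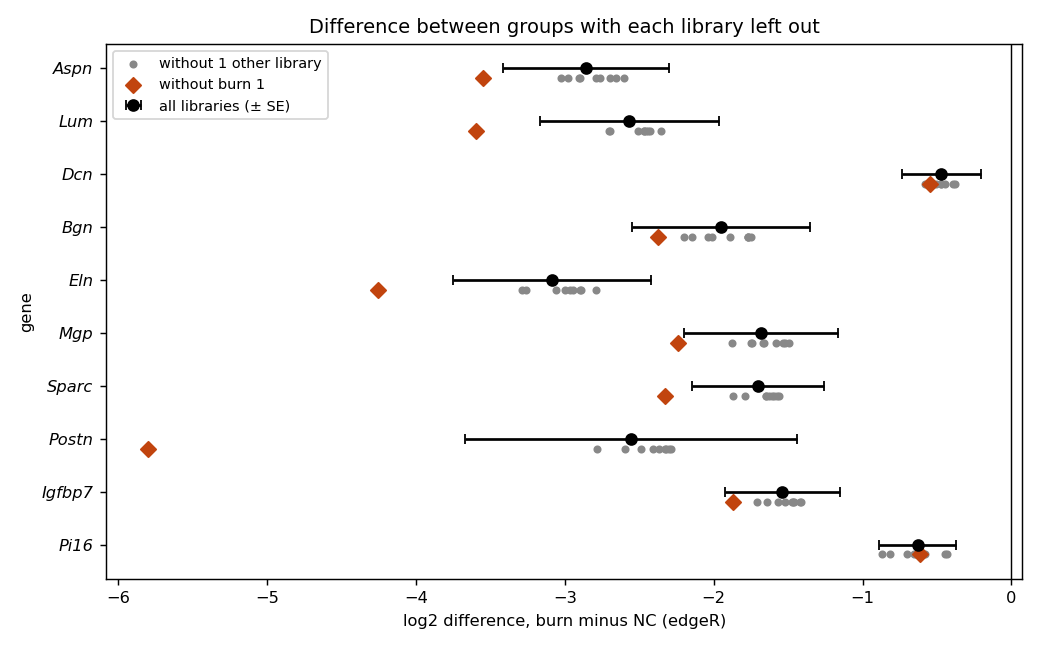
Log2 difference of burn minus NC from edgeR for each gene with all libraries (black, ± SE), without burn 1 (orange diamonds) and without each of the other 9 libraries in turn (grey). All points are below 0, and leaving out burn 1 moves Postn from -2.56 to -5.80 and Eln from -3.09 to -4.25.

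Other matrix genes were read from lists chosen with earlier results of these data known, and are described by the number of tested genes at an unadjusted p under 0.05, against the 7.00% of all genes that were lower and the 4.25% that were higher. In edgeR with all libraries, 0 of the genes named from here on passed the adjusted threshold. DESeq2 called Col15a1, Col1a1, Col5a2, Fbn1, Ltbp2, Adamts2, Nppa, Klrk1 and Serping1 among them, all lower in burn, and Ckm, which was higher. Of the collagen chains of fibrils and their associated collagens, 10 of 11 tested were lower in burn at that level, with a median log2 difference of -1.85. Col3a1, the type III chain, stood at 8.73 CPM in burn 1, 0.425 to 1.14 in burn 2 to 6 and 8.46 to 21.02 in NC. As mean ± SD in burn (n = 6) and then NC (n = 4), Col15a1 stood at 0.469 ± 0.116 and 1.32 ± 0.44 CPM, Col1a1 at 1.68 ± 1.48 and 7.42 ± 4.80 and Col5a2 at 0.406 ± 0.465 and 2.53 ± 1.21.

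Of the other small leucine-rich proteins, 11 of 13 listed were in the table, 5 were tested and 3 were lower at an unadjusted p under 0.05, with a median of -1.09. Ogn, osteoglycin, averaged 0.427 ± 0.108 CPM in burn against 0.933 ± 0.412 in NC, and Prelp, which anchors basement membrane to collagen, at 0.162 ± 0.150 and 0.432 ± 0.084. Nyx, nyctalopin, stood at 2.15 ± 0.27 and 4.59 ± 4.21 CPM. Of elastic fibre and microfibril genes 6 of 12 were lower, with a median of -1.14. Fbn1, the main fibrillin, stood at 0.423 ± 0.252 and 1.68 ± 0.66 CPM, Mfap4 at 0.0950 ± 0.1688 and 0.845 ± 0.363 and Ltbp2 at 3.18 ± 1.30 and 10.6 ± 9.0.

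Of the matricellular and adhesive glycoproteins 2 of 20 were lower, with a median of -0.22. These were Ecm1 (85.1 ± 17.3 and 161 ± 86 CPM) and Ccn2, connective tissue growth factor (0.400 ± 0.392 and 1.16 ± 0.46 CPM), followed by Sparcl1, a relative of Sparc, at 10.01 ± 6.72 and 18.6 ± 9.9 CPM. Of the genes for matrix secretion and crosslinking 3 of 11 were lower, with a median of -0.24: the procollagen N-proteinase Adamts2 (0.138 ± 0.106 and 0.873 ± 0.359 CPM), the lysyl hydroxylase Plod2 (0.960 ± 0.432 and 2.13 ± 0.54) and the procollagen C-proteinase Bmp1 (0.504 ± 0.416 and 1.16 ± 0.12). Of the basement membrane genes 3 of 12 were lower, with a median of -0.25: Col4a2, Col4a1 and Lama2, at log2 differences of -0.71, -0.61 and -1.06.

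Markers of cells that could carry such RNA were counted in the same way. Of the fibroblast genes 16 of 16 had counts in at least 1 library, 10 were tested and 5 were lower, with a median of -0.72. Those not tested, Twist1, Twist2 and Tcf21 among them, had 0 to 18 counts in a library. Ccdc80 stood at 0.674 ± 0.384 and 2.27 ± 1.62 CPM, Fstl1 at 0.748 ± 0.990 and 3.38 ± 1.57 and Gsn, also high in leukocytes and platelets, at 168 ± 19 and 250.3 ± 97.4. The list's sum was 153 to 195 CPM in burn and 180 to 409 in NC. Its mean was 174 CPM in burn and 263 in NC, so nearly all of it was Gsn. The other 5 tested genes of the list had log2 differences of -0.88 for Mmp2, -0.63 for Pdgfra, 0.01 for Fap, 0.09 for Pdgfrb and 0.45 for Serpinf1, with unadjusted p above 0.05 in edgeR. Of the endothelial genes 1 of 9 was lower, Esam, with a list sum of 19.5 to 38.1 CPM in burn and 25.1 to 110 in NC. Of the mural and smooth muscle genes 1 of 7 was lower, Mylk, with 33.6 to 56.4 CPM in burn and 48.3 to 169 in NC. Most of each sum was 1 gene. Esam averaged 19.5 CPM in burn and 43.6 in NC, where the endothelial sum averaged 31.2 and 59.5. Mylk averaged 35.9 and 80.6 CPM, where the mural sum averaged 46.1 and 94.1. Both sums were highest in NC 1, as was the platelet sum. The part of these cell types in the matrix values was not tested, nor was that of platelets in the 2 sums.

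Epithelial genes were detected unevenly. Of the epidermal genes, Krt5, Krt14, Krt1, Krt15, Lor and Flg had 0 to 6 counts in a library. Krt10 had 11 to 28 per library in burn and 20 to 25 in NC. Sfn had 640 to 1414, Cdh1 117 to 250, Dsp 20 to 161 and Epcam 30 to 89. Of 7 keratinocyte and epithelial genes tested, 1 was lower, Perp, with a list median of -0.24 and sums of 42.6 to 52.02 CPM in burn and 31.5 to 61.8 in NC. Fat, mesothelial and cartilage or bone markers had 2, 0 and 1 tested genes, and 0 of these reached an unadjusted p under 0.05 in edgeR. Their sums in burn and NC overlapped, at 6.11 to 10.3 and 8.07 to 9.14 CPM for fat, 0.243 to 0.625 and 0.208 to 0.767 for mesothelium and 0.388 to 1.25 and 0.399 to 0.832 for cartilage and bone.

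Heart muscle genes mostly ran against the matrix genes. Of 9 tested, 4 were higher in burn at an unadjusted p under 0.05 and 1 was lower, with a list median of 0.80. Myh6, the alpha myosin heavy chain of the heart, stood at 10.3 CPM in burn 1, 36.9 to 102 in burn 2 to 6 and 3.50, 12.5, 26.8 and 6.66 in NC 1 to 4. Tnni3, cardiac troponin I, averaged 4.84 ± 2.66 CPM in burn against 1.31 ± 0.71 in NC. The lower gene was Nppa, the atrial natriuretic peptide, which followed the matrix genes: 2.14 CPM in burn 1, 0.106 to 0.333 in burn 2 to 6 and 2.09, 3.88, 7.04 and 3.93 in NC 1 to 4. Burn 1 lay inside the NC range on both Myh6 and Nppa, and below all of burn 2 to 6 on the first and above all of them on the second. Of 7 skeletal muscle genes 2 were higher in burn, Ckm and Mb, which the heart also expresses, with a list median of -0.10. The part of RNA from heart or vessel tissue in the matrix values was not tested.

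Blood cell lists gave other patterns. Of the platelet genes 6 of 13 were lower, with a median of -0.72, Nrgn and Itga2b among them. Of the neutrophil genes 3 of 10 were lower, Clec4d, Cxcr2 and Csf3r, with a median of -1.03. The natural killer list, at a median of -0.69, had 5 of 6 genes lower, led by Klrk1, Eomes and Prf1. Its sum was 177 to 272 CPM in burn and 312, 505 and 533 in NC 1 to 3. In NC 4 it was 160 CPM, below every burn library. Monocyte, T cell and red cell genes had 0 of 9, 0 of 8 and 0 of 6 at an unadjusted p under 0.05 in edgeR, with medians of 0.00, -0.03 and -0.11, and 1 of 6 B cell genes, Ebf1, was higher, with a median of 0.31.

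**Figure D5:**
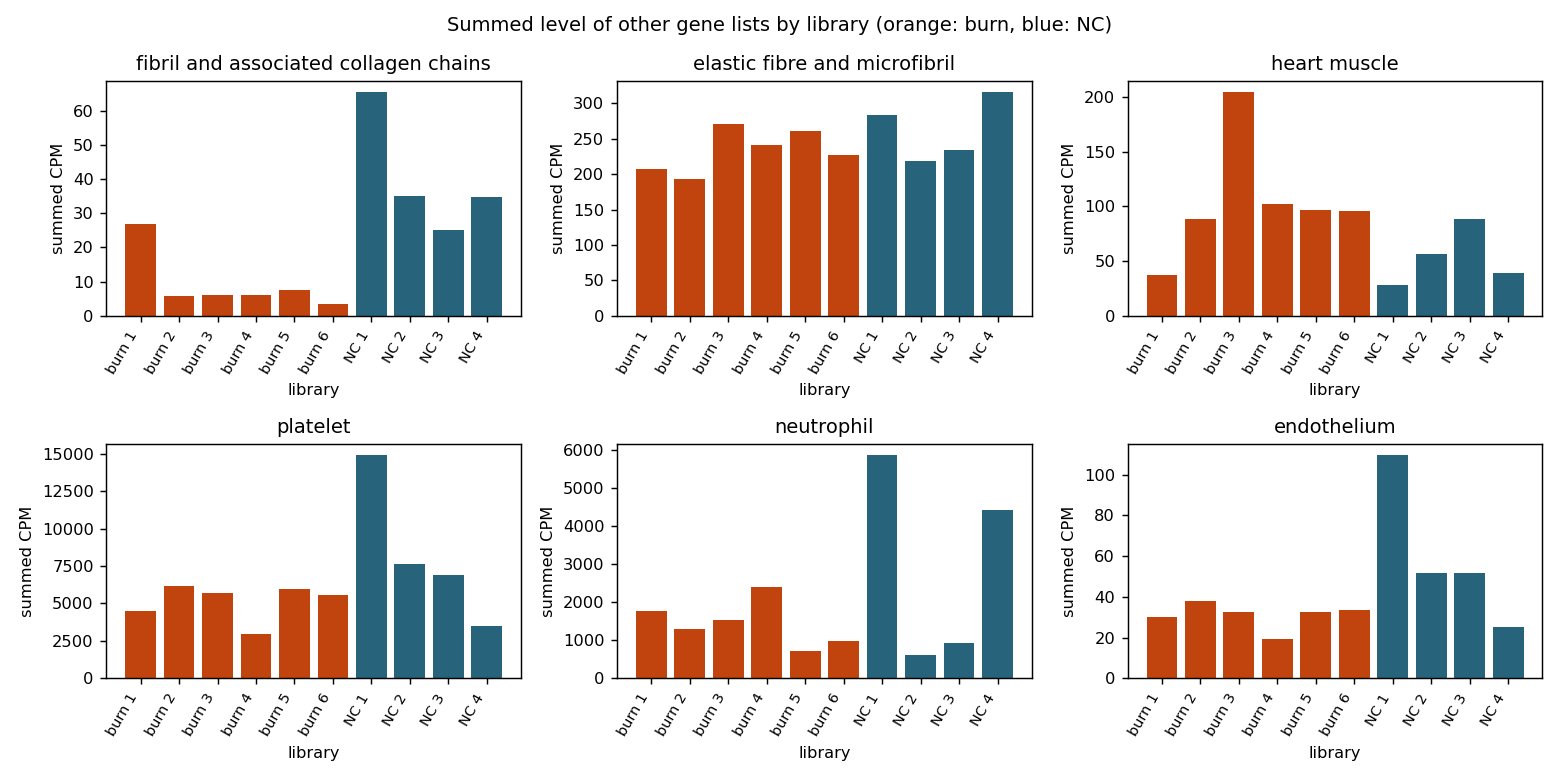
Summed CPM of 6 other gene lists (vertical axes) in each library, burn in orange and NC in blue. Collagen chains are high in burn 1 and NC, at 25.04 to 65.4 CPM against 3.46 to 7.53 in burn 2 to 6, heart muscle genes are lower in burn 1 (37.5 CPM) than in burn 2 to 6 (88.7 to 204 CPM), and platelet and neutrophil genes peak in NC 1.

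The genes most like the members in pattern were ranked by the Pearson correlation of log2 CPM with the mean member level over the 10 libraries. The first 10 outside the members were Col3a1 (0.98), Serping1, Mfap4 and Sfrp1 (0.97 each), Bmp1 and Cc2d2a (0.95 each), Nppa, Col1a1 and Col6a1 (0.94 each) and C1qa (0.93). Serping1 encodes the inhibitor of complement C1, Sfrp1 a secreted Wnt antagonist, Cc2d2a a protein of the cilium base and C1qa a chain of complement C1q. Left without NC 1 and NC 4, the libraries farthest from the median level, these correlations were 0.90 to 0.97. The libraries left still held burn 1, NC 2 and NC 3 above the other burn libraries. The values therefore mostly measure that separation, on members picked for this contrast, and are a description. Spearman's rho over the 10 libraries ran from 0.66 for Bmp1 to 0.98 for Mfap4. Within the 6 burn libraries the first 3 were Mt3, Gria3 and Cacna2d1, at 0.99 each, with Spearman's rho of 0.71, 0.77 and 0.77. Those values rest on burn 1, the single burn library with a high level.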

How the data were processed

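Messenger RNA libraries from mouse blood were sequenced in paired ends, per the labels' protocols, and 10 libraries in 2 treatment groups were used. The deposited counts per gene and the deposited FPKM values come from 1 table, and per the submitters' processing notes the build was mm10. The aligner, the counting program and its handling of strand and shared reads are not given in the available sources. The gene lengths implied by the deposited FPKM, counts and library sums were the same across libraries to within a relative gap of 2.4e-13. They lay within 4.8e-09 of whole numbers.

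Counts were tested with edgeR 4.0.16 in R 4.3.3: filterByExpr with a minimum count of 10, TMM factors, and the quasi-likelihood F test of burn minus NC with no covariate, adjusted by Benjamini-Hochberg over 17268 genes at a threshold of 0.05. Standard errors are the log2 difference divided by the root of the F statistic. CPM are TMM-scaled, and log2 CPM used a prior count of 1. DESeq2 1.42.0 and limma 3.58.1 were alternatives, with library scaling, filters, pseudocounts of 1 and 0.1 on log2(FPKM + pseudocount), sample weights, the replicate number as a block and each library left out. The edgeR script was tested on simulated counts. Library totals of 30677206 to 36379663 set the counting floor, taken as 3 counts.

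The members, the 26 gene lists and the rules were chosen with earlier results of these data known. Named genes are all members, up to 3 genes of smallest p in a list, Col3a1, and the 10 of most alike pattern; further fibroblast and epithelial genes were added after values were seen. Older symbols were matched for 3 listed genes, and 5 listed genes not in the table were not analysed here. Positions came from GENCODE release 21 for mouse. Replicates were compared by chi-square tests. Divided by its degrees of freedom, chi-square was at least 15.8 in burn and 78.8 in NC, so no pair was treated as 1 library sequenced again. The test cannot tell separate animals from separate libraries of 1 animal.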

Additional observations from a re-analysis of the deposited data

Results flagged for a closer look

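In 5 of 20 groups tested, 10 genes in 2 groups each, 1 library lay farther from its nearest neighbour than Dixon's 95% limit allows; chance alone flags about 1 in 20 such groups, and the members are not independent of each other. All 5 were burn 1 as the highest burn library: Aspn at 0.366 CPM, Lum at 0.824, Eln at 1.25, Sparc at 6.99 and Postn at 6.53 CPM. In burn 2 to 6 the highest values of these genes were 0.139, 0.144, 0.222, 2.08 and 0.268 CPM. Of these genes, burn 1 lay inside the NC range for Sparc and Postn and below it for Aspn, Lum and Eln. Beyond the members, burn 1 lay inside the NC range, and outside that of the other burn libraries, for Col3a1 (8.73 CPM), Nppa (2.14 CPM) and Myh6 (10.3 CPM). What sets this library apart was not tested.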

How the results depend on the processing

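With all libraries edgeR called 0 genes, and the count was also 0 with RLE factors, with library totals only, with no filter and with a mean CPM minimum. It was 85 with DESeq2, 1 with limma on log2(FPKM + 1), 1 on log2(FPKM + 0.1) and 4 with sample weights, of which 1 was a member, Eln; it ran from 0 to 10 when 1 library was left out, at 10 without burn 1 and 3 without NC 4. Genes at an unadjusted p under 0.05 numbered 1943, and 1332 to 2917 when 1 library was left out, with 2917 without NC 3. Of the 1943, 1209 were lower in burn; with library totals only it was 972 of 2223, and on log2(FPKM + 1) 576 of 1964. The median log2 difference of the 10 members, -1.83, was -2.35 to -1.70 when 1 library was left out, and -0.53 on log2(FPKM + 1), where the pseudocount is large beside these levels. All 10 members kept a negative sign in every alternative that tested them; the mean CPM minimum left 6. With the replicate number as a block 0 genes were called and 954 had an unadjusted p under 0.05. The numbers are not known to pair libraries: deviations of same-numbered libraries correlated at -0.05, -0.04, -0.07 and 0.34. The low counts of Aspn, Lum, Eln, Mgp and Postn in burn 2 to 6 limit how well their differences are known.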
